A study of Saccharomyces cerevisiae with 5 samples.

Results

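The 40 genes described here encode the enzymes with which Saccharomyces cerevisiae, budding yeast, makes purine nucleotides, pyrimidine nucleotides and deoxynucleotides. They were chosen by name, from the ADE, IMD, URA, PRS and RNR genes and their close functional neighbours. The rule used no measured value, but the list was drawn up with earlier results of these data known. Spots on both array platforms carried the name of 39 of the 40, among 5582 genes with a value on at least 1 array. ADE5,7, whose product carries out a pair of early steps of purine ring synthesis, was not named on either platform here and has no value. The study compared RNA that came down with the tagged protein zzYra1 by immunoprecipitation (IP) with total RNA. Yra1 binds RNA and helps to load export receptors onto mRNA in the nucleus, and the labels write its tagged form with the prefix zz. Each of the 5 spotted arrays carried IP cDNA in 1 of its 2 channels and total RNA cDNA in the other. Channel 2 held the IP on arrays 2, 4 and 5, and channel 1 held it on arrays 1 and 3. Strain, culture, promoter of the tagged gene and treatment are not given in the sources used here, and a mock precipitation was not analysed here.

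Purine and pyrimidine nucleotides both draw their sugar phosphate from 5-phosphoribosyl pyrophosphate (PRPP). The purine ring is built stepwise on that sugar until inosine monophosphate (IMP) is reached, from which separate branches lead to AMP and GMP. The pyrimidine ring is made first as orotate and then joined to PRPP, which leads to UMP. Phosphorylation of UMP gives UTP, from which CTP synthase makes CTP. Ribonucleotide reductase turns ribonucleotides into the deoxynucleotides used for DNA, and thymidylate needs further enzymes of its own. In yeast several of these steps are encoded by paired genes with similar sequences, and the purine genes are known to be repressed when adenine is supplied.

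Values are log2 ratios of the 2 channels of a spot, as deposited, minus the median of all spots of the array. A value of 1 is thus a doubling relative to the median spot. The direction of the deposited ratio is not given, so "above" and "below" refer to the ratio as it stands and not to IP over total RNA. The ratios of arrays 2, 4 and 5, which share the channel of the IP, run the same way in either case. Only these 3 arrays therefore entered the test, and arrays 1 and 3 are given beside them.

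The arrays differed in how many genes they measured and in spread. Genes with a value made up between 31.0% (array 5) and 99.2% (array 1) of those on the platform. The SD across the genes of an array ran from 0.810 on array 2 to 2.25 on array 5. On the log2 scale, a given ratio therefore stands further out on array 2 than on array 5, and percentiles among all genes of the array are given where this matters. The median deposited log10 ratio was 1.34, 0.30 and -0.14 on arrays 2, 4 and 5, and -1.39 and -0.85 on arrays 1 and 3. Between the 10 pairs of arrays, correlations over genes (not independent points) ran from -0.045 to 0.23.

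Nucleotide synthesis genes were measured about as often as other genes. Of the 39 named genes, array 1 measured 39, array 2 measured 27, array 3 measured 16, array 4 measured 25 and array 5 measured 13. As percentages these are 100%, 69.2%, 41.0%, 64.1% and 33.3%, beside 99.2%, 68.9%, 48.8%, 57.7% and 31.0% of all genes on the platform. A value on all 5 arrays was present for 6 genes (ADE1, ADE13, ADE17, ADK1, PRS1 and URA4), while GUK1, which makes GDP from GMP, had 1 on array 1 alone.

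**Figure D1:**
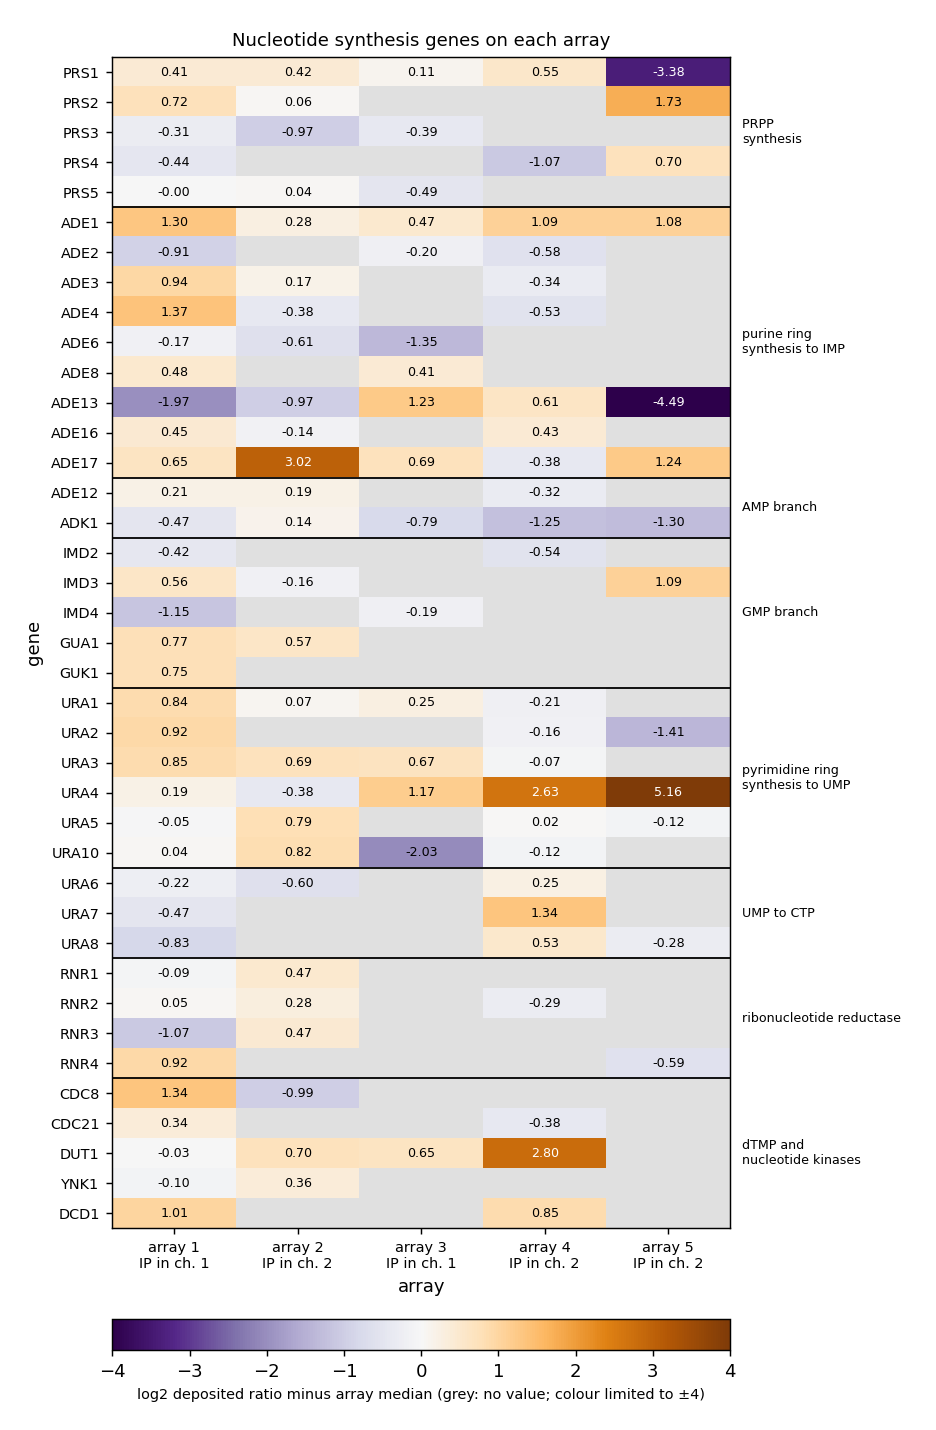
Log2 deposited ratio minus the array median for the 39 measured genes (rows, grouped by role) on the 5 arrays (columns); grey cells have no value and the colour scale stops at 4 in either direction. URA4 and ADE13 hold the highest and the lowest value, 5.16 and -4.49, both on array 5.

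As a group the genes had medians within 0.20 of the array median on all 5 arrays. On arrays 2, 4 and 5 it was 0.17 (27 genes), -0.12 (25 genes) and -0.12 (13 genes), beside 0.0026, -0.031 and -0.098 for all genes. On arrays 1 and 3 it was 0.19 (39 genes) and 0.18 (16 genes), beside -0.010 and -0.044. Genes above the array median numbered 18 of 27, 11 of 25 and 6 of 13 on arrays 2, 4 and 5, and 22 of 39 and 9 of 16 on arrays 1 and 3. With a running median over 81 spots in table order removed, the medians of arrays 3 and 5 changed sign, to -0.071 and 0.11.

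**Figure D2:**
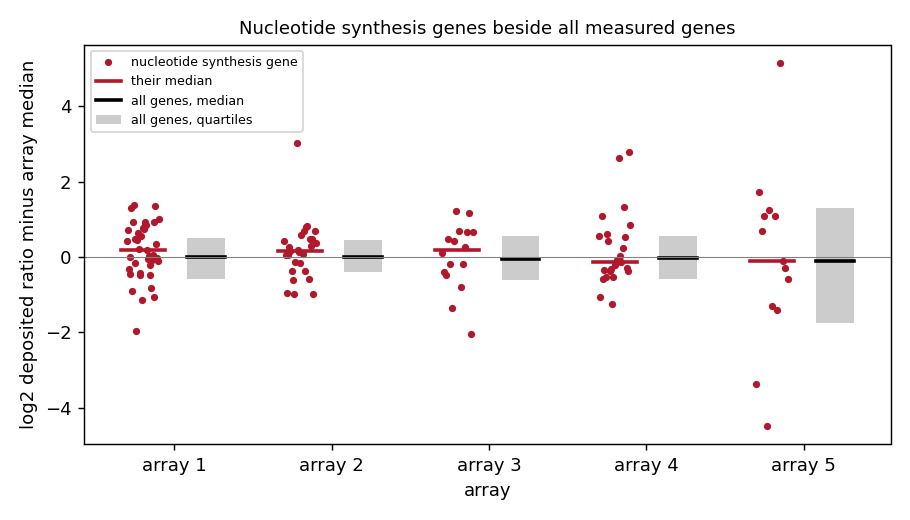
Log2 deposited ratio minus the array median for each nucleotide synthesis gene (points, with a line at their median) beside the median and quartiles of all measured genes (line and grey bar) on each of the 5 arrays. The medians of the points run from -0.12 on arrays 4 and 5 to 0.19 on array 1, while single genes spread from -4.49 to 5.16 on array 5.

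Counts of genes far from the median are given with the same share over all genes as background. More than 1 above the median were 1 of 27 on array 2 (background 8.53% of all genes), 4 of 25 on array 4 (14%), 5 of 13 on array 5 (29.8%), 4 of 39 on array 1 (8.92%) and 2 of 16 on array 3 (13%). More than 1 below it were 0 of 27 on array 2 (6.68%), 2 of 25 on array 4 (12.5%), 4 of 13 on array 5 (34.8%), 3 of 39 on array 1 (14.4%) and 2 of 16 on array 3 (13.6%). Some genes recurred. ADE17 was more than 1 above the median on arrays 2 and 5. More than 1 below it were ADK1 on arrays 4 and 5 and ADE13 on arrays 1 and 5, though ADE13 had 1.23 on array 3. Of these genes, only ADE1 and URA4 were more than 1 above the median on 3 of the 5 arrays. They were so on arrays 1, 4 and 5 (ADE1) and 3, 4 and 5 (URA4). Each of these recurrences includes array 5, where 29.8% of all genes lay more than 1 above and 34.8% more than 1 below. The share of all genes that recur in this way was not computed.

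Of the 39 genes, 7 had a value on each of arrays 2, 4 and 5 and could be tested. They are PRS1, ADE1, ADE13, ADE17, ADK1, URA4 and URA5. Having a value on all 3 arrays was itself a filter, so these 7 do not stand for the group. With limma and Benjamini-Hochberg adjustment over all 735 genes tested, 0 of the 7 had an adjusted p under 0.05, and 0 of them had an unadjusted p under 0.05. URA4 had an unadjusted p under 0.05 in 4 of the 13 alternative fits, ADE13 in 1 and DUT1 in 1, all with limma and none after adjustment. The share of all genes under 0.05 was 6.26% to 8.97% in the 4 fits of URA4. It was 2.76% in that of ADE13 and 8.19% in that of DUT1. The alternative fits reuse the same arrays and do not repeat the result. In the fit of arrays 2, 4 and 5 0% of all genes passed, and 42 of the 735 (5.71%) had an unadjusted p under 0.05. The default and the trend and robust variant of limma both called 0 genes, the variant with 14 at an unadjusted p under 0.05. The median of the 7 means was 0.23, beside 0.076 for all 735, and 4 of the 7 means lay above 0, beside 53.6% of all genes.

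**Figure D3:**
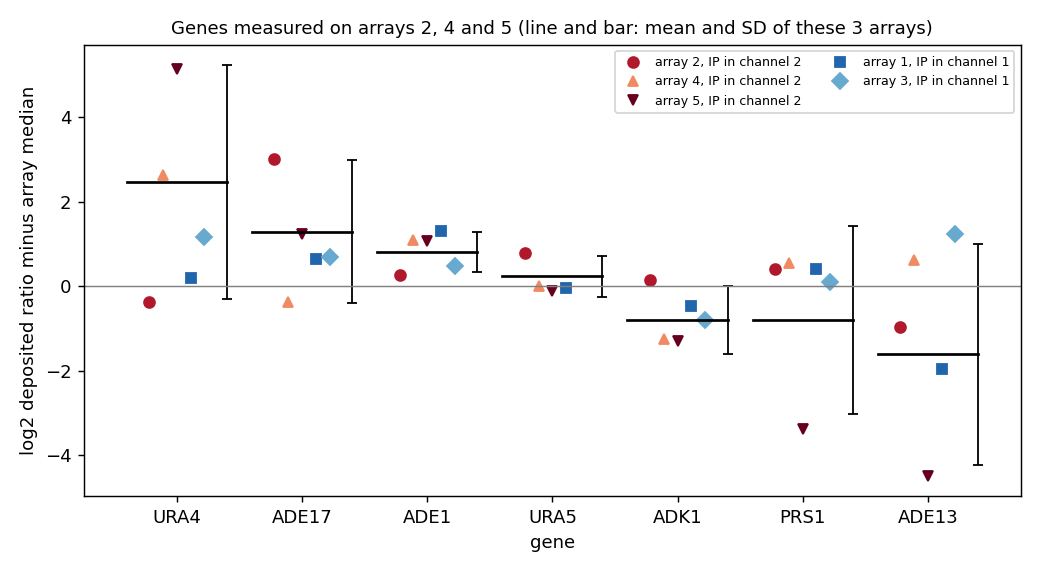
Log2 deposited ratio minus the array median for the 7 genes measured on arrays 2, 4 and 5, one marker per array (red shades, IP in channel 2; blue shades, IP in channel 1), with a line and bar for the mean and SD of arrays 2, 4 and 5. ADE1 has all 5 markers above 0, and the markers of URA4 spread from -0.38 to 5.16.

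URA4 had the widest excursion above the median. It encodes dihydroorotase, which closes the pyrimidine ring. Its value was -0.38 on array 2, 2.63 on array 4 and 5.16 on array 5, and 0.19 on array 1 and 1.17 on array 3. In the same order, these stand at percentiles 26.6, 97.2, 99.4, 60.2 and 89.6 among all genes of the array. URA4 was thus high on the 3 arrays of the second platform and near or below the median on both arrays of the first. The 2 spots of the gene lay close together wherever both had a value, at 2.73 and 2.53 on array 4, 5.06 and 5.25 on array 5, 1.27 and 1.07 on array 3 and 0.25 and 0.13 on array 1. Over arrays 2, 4 and 5 the mean was 2.47 ± 2.77 (SD, n = 3), with a 95% interval of -0.034 to 4.97 and an adjusted p of 0.71 with limma. Without array 2 the mean was 3.89 (limma, adjusted p = 0.28), and without array 5 it was 1.12.

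The other genes of pyrimidine ring synthesis did not share this profile. URA2, which catalyses the first steps up to carbamoyl aspartate, had -0.16 on array 4 and -1.41 on array 5, and 0.92 on array 1. URA1, the dihydroorotate dehydrogenase that follows URA4 in the pathway, had 0.07 on array 2 and -0.21 on array 4, and 0.84 on array 1 and 0.25 on array 3. URA3, which makes UMP by decarboxylation, had 0.69 on array 2 and -0.07 on array 4, and 0.85 on array 1 and 0.67 on array 3. Beside the 2.63 of URA4 on array 4, the other 5 genes of the list all lay between -0.21 and 0.02 there. Above the median, which splits the spots of an array evenly, lay 4 of 5 genes of this list on array 2. It was 2 of 6 on array 4 and 1 of 3 on array 5, and 5 of 6 on array 1 and 3 of 4 on array 3. The list median was 0.69, -0.10 and -0.12 on arrays 2, 4 and 5, and 0.52 and 0.46 on arrays 1 and 3.

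URA5 and URA10 encode the 2 forms of orotate phosphoribosyltransferase, which joins orotate to PRPP. URA5 had 0.79 on array 2, 0.02 on array 4 and -0.12 on array 5, and -0.05 on array 1. Its mean over arrays 2, 4 and 5 was 0.23 ± 0.49 (SD, n = 3; adjusted p = 0.92 with limma), with a sign that changed, to -0.05, without array 2. The value on array 5 is the mean of a pair of spots far apart, at -2.53 and 2.29, and that on array 1 of spots at 0.96 and -1.06. URA10 had 0.82 on array 2 and -0.12 on array 4, and 0.04 on array 1 and -2.03 on array 3, where it was the lowest nucleotide synthesis gene. On the 3 arrays with both, URA5 minus URA10 was -0.03 (array 2), 0.14 (array 4) and -0.09 (array 1), which are small beside the gaps between spots of URA5 on arrays 1 and 5. Hybridisation of one transcript to the spot of the other copy cannot be told apart in these values, and the same holds for the other paired genes below.

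From UMP on, the values differed between arrays in sign. URA6, the kinase that acts on UMP, had -0.60 on array 2 and 0.25 on array 4, and -0.22 on array 1. URA7 and URA8 encode the paired CTP synthases. URA7 had 1.34 on array 4 and -0.47 on array 1, and URA8 had 0.53 on array 4, -0.28 on array 5 and -0.83 on array 1. These 3 genes all lay above the median on array 4 and below it on array 1, arrays of opposite channel assignment. Of all genes, 48.4% lay on the same side of the median on these arrays. On arrays 2 and 5, with the channel assignment of array 4, URA6 and URA8 lay below the median. On array 4 the 2 spots of URA7 were at 1.32 and 1.35, and those of URA8 at 0.51 and 0.55.

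Among the purine genes, ADE1 was the single gene above the median on all 5 arrays. It encodes the enzyme that adds aspartate to the growing purine ring. ADE1 had 0.28 on array 2, 1.09 on array 4 and 1.08 on array 5, and 1.30 on array 1 and 0.47 on array 3. Its place among all genes ran from percentile 66.5 on array 2 to 96.3 on array 1, so it was in the upper part of every array but near the top of array 1 alone. The mean over arrays 2, 4 and 5 was 0.82 ± 0.47 (SD, n = 3), with a 95% interval of -0.71 to 2.34 and an adjusted p of 0.75 with limma. With the running median over 81 spots removed it was 0.36. Of the 6 nucleotide synthesis genes with 5 values, 1 was thus above the median throughout and 0 were below it throughout, beside 5.26% and 3.37% of the 475 genes with 5 values. On arrays 2, 4 and 5, 1 of the 7 tested genes (ADE1) lay above the median throughout and 0 below, beside 17.4% and 11.6% of all genes. If the deposited ratio follows the channels, values of the same sign on arrays of opposite channel assignment stand for opposite differences between IP and total RNA.

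ADE13 spread most widely in the other direction. It encodes adenylosuccinate lyase, which acts both in ring synthesis and in the branch to AMP. ADE13 had -0.97 on array 2, 0.61 on array 4 and -4.49 on array 5, and -1.97 on array 1 and 1.23 on array 3. It was the lowest of these genes on arrays 1 and 5 and the highest on array 3. The gene's 2 spots agreed in sign on every array, but were at -3.58 and -0.36 on array 1 and at -3.71 and -5.28 on array 5. The mean over arrays 2, 4 and 5 was -1.62 ± 2.61 (SD, n = 3), with a 95% interval of -4.03 to 0.79 and an adjusted p of 0.71 with limma. Without array 5 it was -0.18, and without array 4 it was -2.73 (adjusted p = 0.92 with limma).

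ADE16 and ADE17 encode paired enzymes that complete the ring to IMP, and they parted on array 2. ADE17 had 3.02 on array 2, -0.38 on array 4 and 1.24 on array 5, and 0.65 on array 1 and 0.69 on array 3. The value on array 2, from 1 spot, was at percentile 99.3 and was the only one there more than 1 from the median. ADE16 had -0.14 on array 2 and 0.43 on array 4, and 0.45 on array 1. ADE16 minus ADE17 was therefore -3.16 on array 2, 0.81 on array 4 and -0.19 on array 1. For ADE17 the mean over arrays 2, 4 and 5 was 1.29 ± 1.70 (SD, n = 3; adjusted p = 0.71 with limma). It was 0.43 without array 2, 2.13 without array 4 and 0.50 with the running median over 81 spots removed.

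The remaining genes of purine ring synthesis lacked a value on at least 2 arrays. ADE4 encodes the amidotransferase that commits PRPP to purines and was the highest of all these genes on array 1, with 1.37. It had -0.38 on array 2 and -0.53 on array 4. ADE6, the enzyme that adds a ring nitrogen from glutamine, had -0.61 on array 2, and -0.17 on array 1 and -1.35 on array 3. That is the lowest value of the list on array 3. ADE2, which carboxylates the ring precursor, was the lowest of the list on array 4, with -0.58, and had -0.91 on array 1 and -0.20 on array 3. The value on array 4 again joins spots of opposite sign, 1.01 and -2.16, a gap of 3.17 that was the widest among these genes on that array. ADE3, which supplies one-carbon units, and ADE8, which uses them, had values between -0.34 and 0.94 on the arrays that measured them.

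In the branch to AMP, ADK1 was mostly below the median. It encodes adenylate kinase, which interconverts AMP, ADP and ATP. ADK1 had 0.14 on array 2, -1.25 on array 4 and -1.30 on array 5, and -0.47 on array 1 and -0.79 on array 3. It was the lowest of the genes on array 4, at percentile 7.95, while on array 5 a value of that size stood only at percentile 30.6. Over arrays 2, 4 and 5 the mean was -0.80 ± 0.82 (SD, n = 3; adjusted p = 0.76 with limma). Without array 2 it was -1.27, and with the running median over 81 spots removed it was 0.068. ADE12, which starts the branch from IMP, stayed within 0.33 of the median, with 0.19 on array 2 and -0.32 on array 4, and 0.21 on array 1.

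In the branch to GMP, the IMD genes, which encode copies of IMP dehydrogenase, differed on the array that measured all of them. On array 1 IMD3 had 0.56, IMD2 had -0.42 and IMD4, which has an intron, had -1.15. IMD3 also had -0.16 on array 2 and 1.09 on array 5, where its 2 spots stood at 1.12 and 1.06. IMD2 had -0.54 on array 4, with spots at -0.56 and -0.53, and IMD4 had -0.19 on array 3. No array other than array 1 measured more than 1 of the 3, so their difference has a single array behind it. GUA1, which makes GMP, had 0.57 on array 2 and 0.77 on array 1, and GUK1 had 0.75 on array 1.

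The PRS genes encode subunits of PRPP synthetase. PRS1 had 0.42 on array 2, 0.55 on array 4 and -3.38 on array 5, and 0.41 on array 1 and 0.11 on array 3. It was thus slightly above the median on 4 arrays and far below it on the array with the widest spread, where it stood at percentile 8.91 and its spots were at -2.76 and -4.01. The mean over arrays 2, 4 and 5 was -0.81 ± 2.23 (SD, n = 3; adjusted p = 0.78 with limma), and without array 5 it was 0.48. With all arrays scaled to the same spread it was -0.068. PRS2 and PRS4, a similar pair, had 1.73 and 0.70 on array 5 and 0.72 and -0.44 on array 1. PRS2 was thus higher by 1.03 and 1.16, with PRS4 on array 5 measured by 1 spot. Arrays 5 and 1 have opposite channel assignment. If the ratio follows the channels, these differences run opposite ways between IP and total RNA. PRS2 also had 0.06 on array 2, and PRS4 had -1.07 on array 4. PRS3 had -0.97 on array 2, and -0.31 on array 1 and -0.39 on array 3. PRS5 had 0.04 on array 2, and -0.0032 on array 1 and -0.49 on array 3.

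Ribonucleotide reductase genes had few values and none on array 3. RNR1, the main large subunit, had 0.47 on array 2 and -0.09 on array 1. RNR3, the large subunit known for its induction by DNA damage, had 0.47 on array 2 and -1.07 on array 1, so RNR1 minus RNR3 was 0.0077 and 0.97. The small subunit genes RNR2 and RNR4 were both measured on array 1, at 0.05 and 0.92. RNR2 also had 0.28 on array 2 and -0.29 on array 4, and RNR4 had -0.59 on array 5. All 3 reductase genes measured on array 2 lay above its median, as did 18 of the 27 nucleotide synthesis genes there. On array 1 it was 2 of 4, beside 22 of 39.

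Of the genes for thymidylate and for nucleotide kinases, DUT1 stood out on array 4. It encodes dUTPase, which keeps uracil out of DNA and yields the precursor of thymidylate. DUT1 had 0.70 on array 2 and 2.80 on array 4, and -0.03 on array 1 and 0.65 on array 3. The value on array 4 was the highest of all these genes there, at percentile 97.8, and came from 1 spot. With limma on arrays 2 and 4, the fit without array 5, DUT1 had the smallest unadjusted p of the 17 genes of the group then tested, and its adjusted p was 0.43. CDC8, the thymidylate kinase, had -0.99 on array 2 and 1.34 on array 1, the lowest value of the group on array 2 and, after ADE4, the highest on array 1. CDC21, thymidylate synthase, had -0.38 on array 4 and 0.34 on array 1. DCD1, the deaminase that supplies dUMP, had 0.85 on array 4 and 1.01 on array 1, and YNK1, the nucleoside diphosphate kinase, had 0.36 on array 2 and -0.10 on array 1.

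On the second platform, the 2 spots of a gene agreed more closely than any pair of arrays did. On this platform the spots lay next to each other, and over all genes they correlated at 0.86 on array 4, 0.92 on array 5 and 0.79 on array 3. On the first platform they lay apart, by a median of 1755 places in the table, and correlated at 0.31 on array 2 and 0.12 on array 1. Neighbouring spots share their surroundings on the slide, and its part in these correlations was not tested. For the nucleotide synthesis genes the median gap between spots was 0.77 over 3 genes of array 2, 0.29 over 17 of array 4 and 0.52 over 11 of array 5. It was 0.31 over 10 genes of array 1 and 0.16 over 8 of array 3, beside medians over all genes of 0.61, 0.34, 0.41, 0.71 and 0.43 on arrays 2, 4, 5, 1 and 3. Both spots lay on the same side of the median for 3 of 3, 12 of 17, 10 of 11, 7 of 10 and 8 of 8 of these genes on those arrays, beside 52.9%, 79.1%, 90.7%, 53.2% and 75.4% of all genes with a pair of spots. The values of URA4, URA7 and IMD2 on array 4 thus repeat within the array to within 0.20, while those of ADE2 on array 4 and URA5 on array 5 do not.

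**Figure D4:**
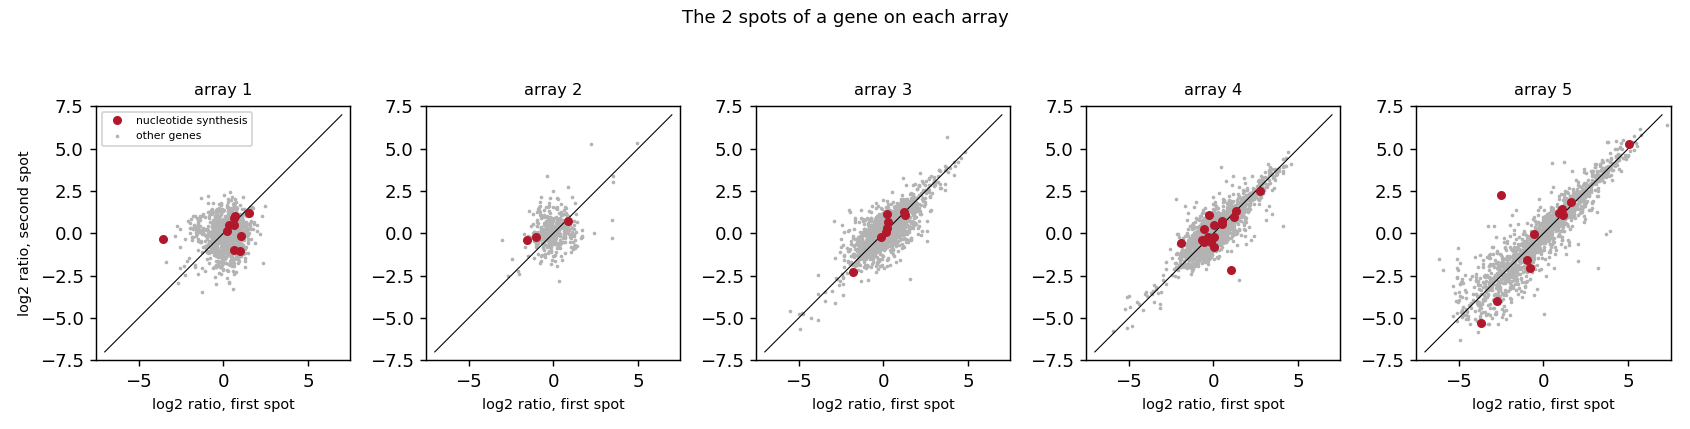
Log2 deposited ratio minus the array median of the first spot (x axis) and the second spot (y axis) of each gene with a pair of spots, on each of the 5 arrays; red points are nucleotide synthesis genes, grey points other genes, and the line marks equality. Points follow the line on arrays 3, 4 and 5, where the pair is adjacent (r of 0.79, 0.86 and 0.92), and scatter on arrays 1 and 2 (r of 0.12 and 0.31).

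Gene length was nearly unrelated to the ratio among these genes. Across genes, Spearman's rho between length and ratio was -0.07, -0.16 and -0.12 over the 27, 25 and 13 genes of arrays 2, 4 and 5, and -0.15 and -0.08 over the 39 and 16 genes of arrays 1 and 3. Points of one array share its labelling and hybridisation, so these are descriptions of single arrays.

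Genes of salvage, uptake, one-carbon supply and regulation of the same pathways were listed separately, and 47 of 50 had a value. On arrays 2, 4 and 5 their median was -0.16 (29 genes), -0.11 (27 genes) and 0.81 (13 genes). On arrays 1 and 3 it was -0.06 (47 genes) and -0.22 (24 genes). Of the 5 that could be tested on arrays 2, 4 and 5, 0 had an adjusted p under 0.05 with limma. CPA1, a subunit of the carbamoyl phosphate synthetase of arginine synthesis, had 0.44 on array 2, 2.67 on array 4 and 0.81 on array 5. Its mean over these arrays, 1.31 ± 1.20 (SD, n = 3), leans on array 4. On arrays 1 and 3 CPA1 lay below the median, at -0.20 and -0.12. SWI6, a cell cycle regulator of transcription, had 0.95, 0.03 and 1.77 on arrays 2, 4 and 5, and -1.15 on array 1. CDD1, cytidine deaminase, had -1.0, 1.25 and 0.28 on arrays 2, 4 and 5, and -0.48 on array 1. The other 2 are BAS1, the activator of the ADE genes, with a mean of 0.48 ± 0.50, and RFX1, the repressor of the RNR genes, with -0.66 ± 0.68. BAS1 lay above the median on each of its 4 arrays, with 0.15 on array 2, 0.22 on array 4 and 1.06 on array 5, and 0.62 on array 1. So did APT2, a salvage gene, with 0.25 on array 4 and 1.72 on array 5, and 0.79 on array 1 and 2.09 on array 3. Over arrays 2, 4 and 5, 17.4% of all genes tested lay above the median throughout. The share over 4 arrays was not computed, and arrays 1 and 3 have the opposite channel assignment. RFX1 had 0.03 on array 2, -0.67 on array 4 and -1.33 on array 5, and -0.35 on array 1 and -0.30 on array 3.

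The sign of each mean depends on how the deposited ratio runs. With arrays 2, 4 and 5 turned in sign and joined to arrays 1 and 3, 6 genes had a value in all 4 replicates, array 1 and array 2 being averaged as 1. All 6 then changed sign relative to arrays 2, 4 and 5 alone, as did 88.3% of the 478 genes in both fits, since turning most of the arrays largely sets this. URA4 had -1.58, ADE13 1.15, PRS1 0.73, ADK1 0.36, ADE17 -0.34 and ADE1 -0.30 (adjusted p of 0.92 to 0.93 with limma). With all arrays kept as deposited, the same 6 genes had 2.21, -1.03, -0.58, -0.88, 0.85 and 0.86, and 0 passed (adjusted p of 0.54 to 0.76 with limma).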

How the data were processed

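Two-colour spotted arrays compared zzYra1 IP RNA with total RNA. For each spot the authors deposited a log10 ratio of its channels. Direction and processing are not given in the sources used here, and the column medians show that the channels had not been balanced. The base was settled from the values: read as base 10 and multiplied by 100, larger channel on top, 17.3% of array 5's linear ratios were whole within 0.001. Base 2 gave 0.134% and base e gave 0.215%. Arrays 1 to 4 had 0.407% to 1.87% with base 10, beside 0.145% to 0.246% with base 2 and 0.179% to 0.307% with base e. For these arrays the base thus rests on smaller differences. No intensities were analysed here, so spot brightness is unknown, and the number of arrays limits the precision.

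Values were turned to log2 and centred on the median of each array. IDs that occurred on a pair of rows, 4 in all, were merged. Gene names came from GEO's annotation of the platforms, an old one: 6695 of 7680 spots on the first platform (arrays 1 and 2) and 11138 of 12800 on the second (arrays 3, 4 and 5) carried 1 gene, 0 several, and 985 and 1662 none. Symbols were updated through RefSeq assembly R64, which held 5578 of 5583 and 5534 of 5539 genes. It was also used for gene lengths, which include introns. Spots of a gene were averaged.

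Genes with a value on arrays 2, 4 and 5 were tested against 0 with limma 3.58.1 (lmFit, eBayes; statmod 1.5.0, R 4.3.3), with Benjamini-Hochberg adjustment over 735 genes and a threshold of 0.05. Simulated data held 735 genes and 3 arrays, with normal values and the same spread of a gene on all 3. Of 100 genes shifted up by 2 and 100 shifted up by 4 on the log2 scale, 30% and 96% were recovered. There were 4 false calls among 130. The SD across the genes of arrays 2, 4 and 5 was 0.810, 1.11 and 2.25, a difference between arrays that the simulation did not copy. Its rates may therefore not hold for these data. Both tables entered the same fit because a ratio and its centring lie within 1 array. Separate cultures are not stated in the labels, and the p-values then cover only the spread among these arrays, which may be technical. Arrays 1 and 2 share a date in their titles and may hold the same extracts with channels exchanged. Other work used Python 3.11.15 with matplotlib 3.10.9, scipy 1.17.1, pandas 2.3.3 and numpy 2.4.6.

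Members and lists were chosen with earlier results of these data known. Named are all tested genes, paired genes and the highest and lowest nucleotide synthesis gene of each role list on an array. The remaining genes with few values were added to complete the lists, after their values were seen. Alternatives changed the arrays used, direction, replicate unit, filter, centring, scaling, spot summary, position trend and moderation, and left out each array.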

Additional observations from a re-analysis of the deposited data

Results flagged for a closer look

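Among 12 sets of 4 or 5 array values (11 genes and the group median), 2 had 1 array standing apart from the others by Dixon's test at 95%. Chance flags about 1 in 20 where spreads are equal, which they are not here (SD across genes 2.25 on array 5 and 0.810 on array 2). PRS1 on array 5 was at -3.38, at percentile 8.91 of that wide array, while the other 4 arrays lay between 0.11 and 0.55. URA5 on array 2 was at 0.79, while the other 3 arrays lay between -0.12 and 0.02. Of these, the values of arrays 1 and 5 are means of spots of opposite sign. Dixon's test took the ratios as deposited, on arrays of both channel assignments. If the ratio follows the channels, these arrays do not run the same way, and the flags were not computed with arrays turned in sign.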

How the results depend on the processing

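Of the nucleotide synthesis genes, 0 passed under any of the 13 alternatives (smallest adjusted p 0.28 with limma). Over all genes the count was 0 in 12 alternatives and 4 without replicate 5, where 2185 genes were tested on arrays 2 and 4. The 4, none of them a nucleotide synthesis gene and named after their values were seen, were SSA2, SUE1, DSK2 and RPL21B. Genes at an unadjusted p under 0.05 numbered 14 to 179. Leaving out each replicate gave 0 to 4 genes called and a median of the tested genes of -0.12 to 0.47, the lowest without replicate 2. PRS1 then ran from -1.48 to 0.48 and URA5 from -0.052 to 0.40, while ADE1 (0.68 to 1.08), ADE13 (-2.73 to -0.18), ADE17 (0.43 to 2.13), ADK1 (-1.27 to -0.55) and URA4 (1.12 to 3.89) kept their sign. With the arrays holding the IP in channel 2 turned, PRS1 was at 0.73, ADE1 at -0.30, ADE13 at 1.15, ADE17 at -0.34, ADK1 at 0.36 and URA4 at -1.58. With a running median over 81 spots removed, PRS1 was at 0.16, ADK1 at 0.068 and URA5 at -0.32. ADE1 (0.36), ADE17 (0.50), ADE13 (-1.02) and URA4 (1.65) then kept their sign at a smaller size. With arrays scaled to the same spread, PRS1 was at -0.068, ADE13 at -1.03 and URA5 at 0.45. URA4 was then at 1.72, ADE17 at 1.80, ADE1 at 0.80 and ADK1 at -0.65. On arrays 1 and 3 alone, an alternative chosen after seeing the data, PRS1 was at 0.26 and URA4 at 0.68. There ADE1 was at 0.89, ADE17 at 0.67, ADE13 at -0.37 and ADK1 at -0.63. The cause of these changes was not tested, beyond the change of arrays or sign itself. IP and total RNA are paired within each array, so the test of the ratio against 0 is the paired analysis, and no further block was fitted.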
